A study of Drosophila melanogaster with 10 samples.

Results

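The genes described here are those of cuticular hydrocarbon synthesis: the fatty acid synthases FASN2 and FASN3, the desaturases Desat1 and desatF, the elongases eloF and Elo68alpha, the fatty acyl-CoA reductase FarO, the decarbonylase Cyp4g1 and its electron donor Cpr. They were found in the deposited count table by gene identifier, through symbol or synonym, and 8 of the 9 listed genes had a row among 17559. The identifier that the annotation now gives FASN3 was not among the rows, and older identifiers were not searched, so FASN3 was not analysed here. The desatF row carries the current symbol Fad2.

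RNA-seq of poly(A) transcripts was done on whole Drosophila melanogaster males aged 5 to 10 days after eclosion, with 5 flies pooled in each sample. The Mef2 knockdown group (5 libraries) carried the GAL4 driver c564 and the hairpin transgene UAS-Mef2-IR[GD15549], which targets the MADS-box transcription factor Mef2. The control group (5 libraries) carried c564 and no hairpin. All flies were hemizygous for w[1118]. The sample labels and the design text differ on which chromosome bears the hairpin. The driver c564 is active mainly in fat body, but not there alone, and since whole flies were used, every organ contributes to each value.

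Cuticular hydrocarbons are long waxy chains that keep the fly from drying out and serve as contact pheromones. They are made in oenocytes, secretory cells under the abdominal cuticle that lie beside the fat body. A fatty acid synthase builds the chain, elongases lengthen it, desaturases add double bonds, a reductase turns the acyl-CoA into an aldehyde, and Cyp4g1, supplied with electrons by Cpr, removes the terminal carbon to leave a hydrocarbon. In females of this species desatF and eloF add the steps that give long dienes, whereas males carry mainly monoenes made through Desat1.

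Libraries held 43823883 to 102851945 counts, and replicates 1 to 3 stood apart from replicates 4 and 5 in both groups. The labels do not name that split. Values within each set are given for the hydrocarbon genes, and for other genes mainly where the change differed between the sets. Changes are log2 fold changes of knockdown over control from edgeR's quasi-likelihood test over 13928 genes, with Benjamini-Hochberg adjustment. Calls needed an adjusted p below 0.05. Levels are CPM, counts relative to TMM-scaled library size, and ± gives the SD (n = 5 libraries a group). Mef2 itself averaged 79.3 ± 5.1 CPM in knockdown and 93.6 ± 4.6 CPM in control, a log2 change of -0.24 (SE 0.056, adjusted p = 0.0149), with -0.34 within replicates 1 to 3 and -0.12 (adjusted p = 0.28) within replicates 4 and 5 (interaction adjusted p = 0.0425). Of all tested genes 16.6% were called, 5.51% lower and 11.1% higher, and 66.85% of the calls were higher with TMM against 53.19% with upper-quartile scaling. The number called lower was 768, but 473, 444, 414 and 454 without control replicate 1, 3, 4 or 5, while 1549 were higher, but 952, 1001 and 853 when control replicate 1, 2 or 3 was left out.

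Of the 7 hydrocarbon genes that could be tested, 4 were lower in knockdown, against 5.51% of all genes, and none was higher, against 11.1%. The 4 were FASN2, Desat1, Cyp4g1 and Cpr, the most strongly expressed of the set, and their knockdown levels were between 60.3% and 71.1% of control. FarO, Elo68alpha and eloF did not pass the test, and desatF was too low to be tested. Over the 7 tested genes the median log2 change was -0.49, against -0.00394 over all genes. Ranges of the groups were separate in 4 of the 7, and in 18.6% of all genes. No gene of the 7 had an estimate above 0, so none was higher at an unadjusted p under 0.05 or by DESeq2 or limma voom. RNA was taken from whole flies, so these values cannot tell apart fewer oenocytes, less of each transcript per oenocyte and less of it in other cells.

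**Figure D1:**
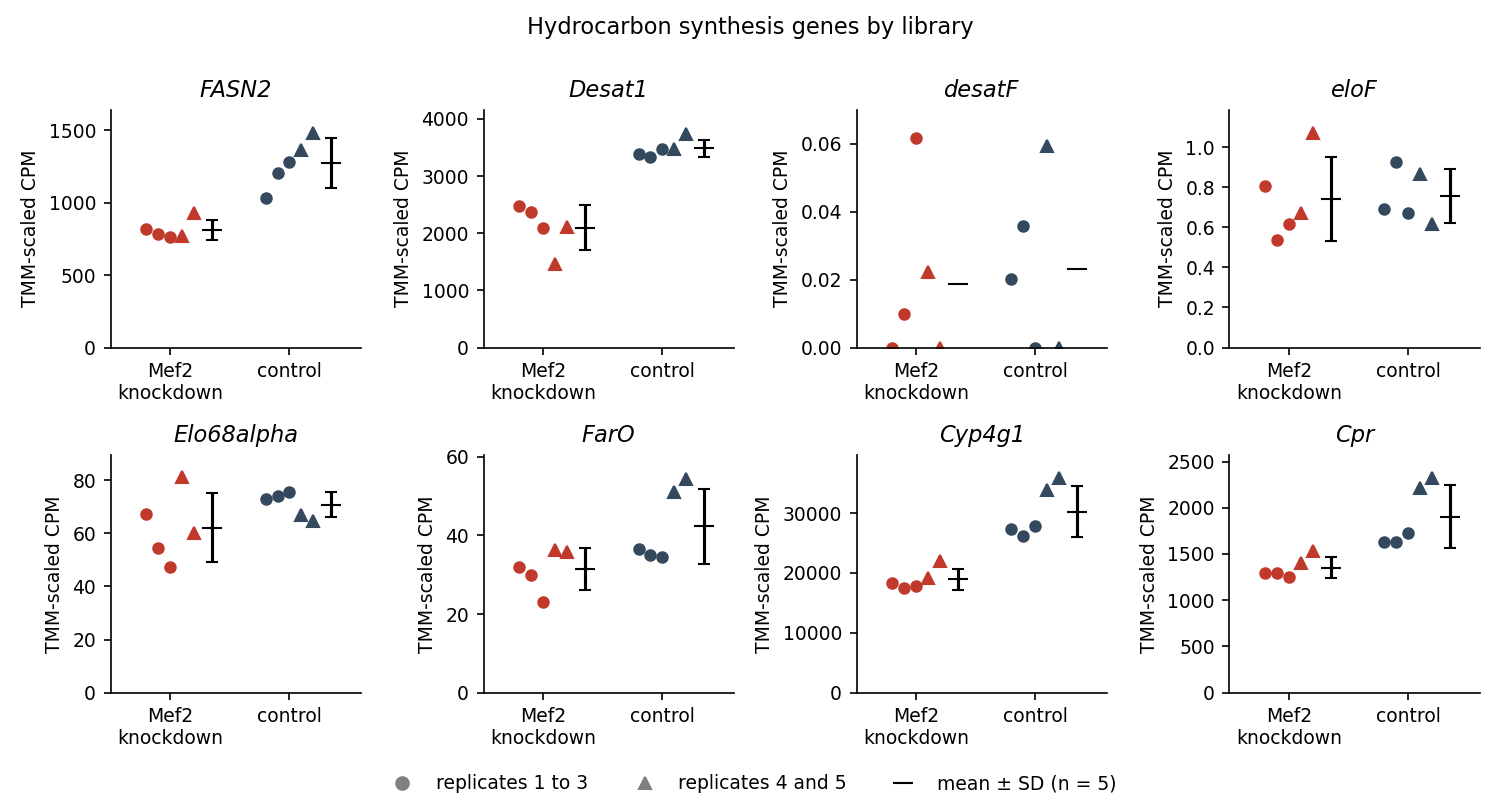
TMM-scaled CPM of the 8 hydrocarbon synthesis genes in each library, knockdown (red) and control (dark blue), with circles for replicates 1 to 3, triangles for replicates 4 and 5, and black marks for the mean ± SD over 5 libraries (the mean alone for desatF). For FASN2, Desat1, Cyp4g1 and Cpr all 5 knockdown libraries lie below all 5 control libraries, and for the other 4 genes the groups overlap.

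FASN2, which supplies precursors of methyl-branched hydrocarbons, was lower in knockdown. Its gene lies on chromosome 2L, 3043947 to 3056143 (BDGP6). Knockdown libraries 1 to 5 had 818, 784, 762, 769 and 930 CPM, and control libraries 1 to 5 had 1032, 1205, 1277, 1366 and 1482 CPM. The highest knockdown library was thus below the lowest control library, and control values were spread more widely than knockdown values. The log2 change was -0.65 (SE 0.10, adjusted p = 0.00136). Its neighbour FASN1, the general fatty acid synthase, begins 0.45 kb downstream. The identifier that the annotation now gives FASN1 is not among the rows, and older identifiers were not searched. Whether a row without a symbol holds its counts was not examined, so no value is given for FASN1.

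Desat1, the desaturase that places the double bond of male monoenes and also serves fat storage, was lower in knockdown (chromosome 3R, 12439600 to 12447616). In knockdown, libraries 1 to 5 had 2467, 2365, 2092, 1456 and 2116 CPM, and control libraries 1 to 5 had 3393, 3336, 3466, 3477 and 3738 CPM. Control libraries lay close together, while knockdown replicate 4 was lower than the other knockdown libraries. The log2 change was -0.73 (SE 0.12, adjusted p = 0.00258). The adjacent desaturase Desat2, 1.74 kb away and named after its values were seen, was low in both groups, at 0.446 ± 0.129 CPM in knockdown and 0.572 ± 0.143 CPM in control (log2 -0.35, adjusted p = 0.282), and was called within replicates 4 and 5 alone (-0.94, adjusted p = 0.041).

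The female desaturase desatF (chromosome 3L, 11023535 to 11024846) was hardly detected in these males. Its counts were 0, 1, 3, 1 and 0 in knockdown libraries 1 to 5, and 1, 2, 0, 3 and 0 in control libraries 1 to 5. No library had more than 3 counts, the number taken here as the floor, so the gene's level is at or under the floor in every library and no fold change is given.

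The elongase eloF, which lengthens female dienes, was also low in both groups (chromosome 3R, 9814161 to 9815158). In knockdown, libraries 1 to 5 had 0.808, 0.539, 0.617, 0.670 and 1.07 CPM, and control libraries 1 to 5 had 0.691, 0.927, 0.673, 0.868 and 0.616 CPM. The groups overlapped throughout, and the log2 change was -0.038 (SE 0.21, 95% interval -0.49 to 0.41, adjusted p = 0.909). With 28 to 68 counts per library the interval is wide, and its lower end is at the estimate for Cpr.

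The 4 elongase genes nearest to eloF, at most 3755 bp from it on chromosome 3R, did not share its level. CG16904, 0.77 kb away, averaged 368.6 ± 14.9 CPM in knockdown and 604.1 ± 83.7 CPM in control (log2 -0.71, SE 0.089, adjusted p = 0.000392). CG9459, 2.27 kb away, averaged 34.8 ± 1.9 CPM in knockdown and 56.0 ± 9.3 CPM in control (log2 -0.69, SE 0.10, adjusted p = 0.00111). Both genes fell, while the estimate for eloF was near 0. CG9458, named after its values were seen, fell by 0.70 on the log2 scale (adjusted p = 0.00289). CG8534, 0.22 kb away and also named afterwards, had 18 counts in all knockdown libraries together and 7 in all control libraries, and was not tested. Whether reads were shared among related elongases is not known, because the treatment of reads with several matches is not given in the sources used here.

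Elo68alpha, a male elongase tied to the male pheromone cis-vaccenyl acetate, had overlapping groups (chromosome 3L, 11101875 to 11103030). Knockdown libraries 1 to 5 had 67.4, 54.6, 47.3, 81.2 and 60.3 CPM, and control libraries 1 to 5 had 72.9, 73.9, 75.5, 66.9 and 64.7 CPM. Knockdown replicate 4 was above every control library, 3 knockdown libraries were below every control library, and knockdown replicate 1 was within the control range. The log2 change was -0.19 (SE 0.12, 95% interval -0.45 to 0.08, adjusted p = 0.281), and it was called only without knockdown replicate 4 (-0.32, adjusted p = 0.0454) among the 10 omissions of 1 library. Within replicates 1 to 3 alone it was called (-0.39, adjusted p = 0.0186), and within replicates 4 and 5 alone the estimate was 0.076 (adjusted p = 0.71). Its neighbour Elo68beta, 0.18 kb away and named after its values were seen, had 0.547 ± 0.161 CPM in knockdown and 0.583 ± 0.062 CPM in control (log2 -0.13, adjusted p = 0.654).

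FarO, the oenocyte acyl-CoA reductase, was lower on average but missed the threshold (chromosome X, 2201820 to 2203866). Knockdown libraries 1 to 5 had 31.9, 30.04, 23.1, 36.3 and 35.7 CPM, and control libraries 1 to 5 had 36.6, 35.1, 34.6, 50.9 and 54.4 CPM. Pooled over replicates the groups overlapped, but within replicates 1 to 3 and within replicates 4 and 5 every knockdown library was below every control library. The log2 change was -0.43 (SE 0.16, 95% interval -0.77 to -0.09, adjusted p = 0.0781). With the replicate number as a block it was -0.42 and was called (adjusted p = 0.00735), as it was within replicates 1 to 3 (-0.32, adjusted p = 0.0383) and within replicates 4 and 5 (-0.57, adjusted p = 0.00682). Exons of FarO share 38 bp with those of another annotated RNA, asRNA:CR43637.

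Cyp4g1, the cytochrome P450 that performs the last step, was by far the most abundant of the 8 (chromosome X, 467057 to 469335). In knockdown, libraries 1 to 5 had 18329, 17501, 17815, 19091 and 21943 CPM, and control libraries 1 to 5 had 27405, 26217, 27885, 33885 and 35838 CPM. The highest knockdown library was below the lowest control library, and in both groups replicates 4 and 5 were above replicates 1 to 3. The transcript took 1.89% of all counts on average in knockdown and 3.03% in control, and ranked 2 or 3 among all 17559 rows in each knockdown library and 2 in each control library. The log2 change was -0.68 (SE 0.12, adjusted p = 0.00286).

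Cpr, the reductase that passes electrons from NADPH to Cyp4g1 and to the other microsomal P450 enzymes, was also lower (chromosome 2L, 6338836 to 6346280). Knockdown libraries 1 to 5 had 1291, 1291, 1250, 1403 and 1533 CPM, and control libraries 1 to 5 had 1625, 1626, 1723, 2212 and 2327 CPM. The groups did not overlap, and the same replicates as for Cyp4g1 were the high ones. The log2 change was -0.49 (SE 0.12, adjusted p = 0.0159).

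Per kilobase of exon, the order of the 8 levels was the same in knockdown and control. Cyp4g1 came first at 8309 ± 783 CPM per kb in knockdown and 13272 ± 1892 in control. Desat1 followed at 844 ± 158 CPM per kb in knockdown and 1399 ± 62 in control, then Cpr at 405 ± 34 in knockdown and 569 ± 102 in control. FASN2 was at 99.6 ± 8.5 CPM per kb in knockdown and 155.9 ± 20.8 in control. These 4 are the genes that fell. Elo68alpha was at 66.3 ± 13.8 CPM per kb in knockdown and 75.6 ± 5.0 in control, and FarO at 18.7 ± 3.2 in knockdown and 25.2 ± 5.7 in control. The female genes came last, eloF at 0.795 ± 0.225 CPM per kb in knockdown and 0.809 ± 0.144 in control, and desatF at or under the floor. Library ranges of neighbours in this order did not overlap in either group, so each step in the order exceeded the spread between libraries.

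**Figure D2:**
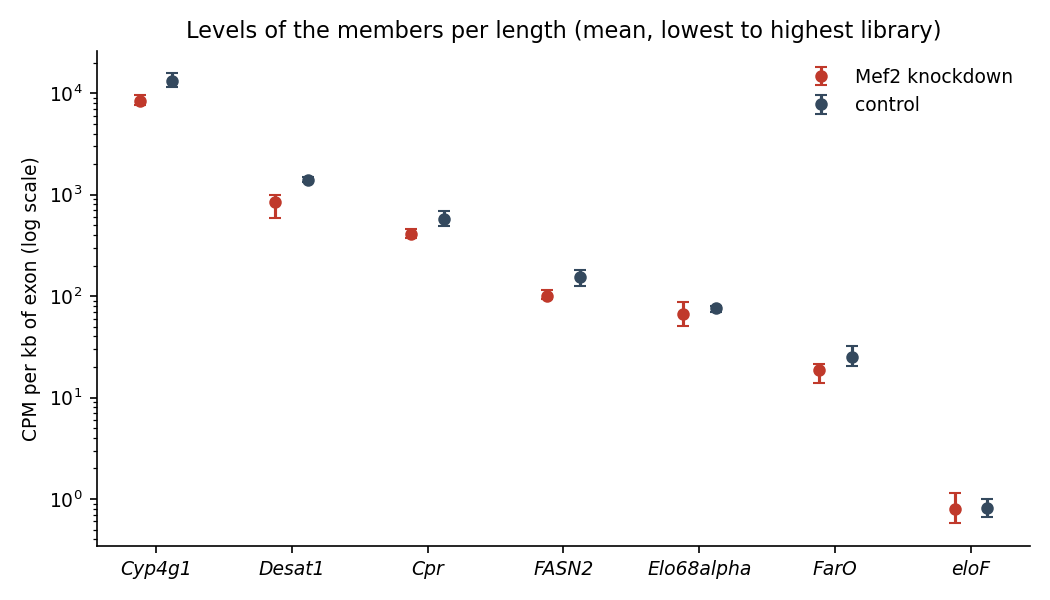
Mean CPM per kb of merged exon length on a log scale for 7 hydrocarbon synthesis genes, knockdown (red, left) and control (dark blue, right), with bars from the lowest to the highest of 5 libraries and desatF left out because some libraries had 0 counts. Levels span from 13272 CPM per kb for Cyp4g1 in control down to under 1 CPM per kb for eloF in both groups.

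Whether one hydrocarbon gene changed more than another was tested on the log2 ratio of their counts within each library, which needs no scaling between libraries. With 21 pairs and 5 libraries a group, a two-sided exact permutation test could reach p = 0.00794 at the lowest. After adjustment over 21 pairs, a pair at that p could not pass by itself, only if several other pairs had low p too. The ratio of Cyp4g1 to Cpr was 3.81 ± 0.038 in knockdown and 4.00 ± 0.057 in control on the log2 scale, a difference of -0.19 without overlap between the groups (exact p = 0.00794, adjusted p = 0.0833). Cyp4g1 was thus lower relative to its electron donor in 5 of 5 knockdown libraries, yet the adjusted p missed the threshold. The ratio of Desat1 to Elo68alpha was 5.08 ± 0.53 in knockdown and 5.62 ± 0.15 in control, again without overlap (exact p = 0.00794, adjusted p = 0.0833). Cyp4g1 and FASN2 kept nearly the same ratio, at 4.54 ± 0.063 in knockdown and 4.57 ± 0.12 in control (difference -0.029, exact p = 0.675, adjusted p = 0.683). By this exact test 6 of the 21 pairs had an unadjusted p under 0.05 and 0 had an adjusted p under it.

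Within replicates 1 to 3 the log2 changes of the 4 called genes were -0.60 for Cyp4g1, -0.57 for FASN2, -0.56 for Desat1 and -0.38 for Cpr. Within replicates 4 and 5 they were -0.79 for Cyp4g1, -0.77 for FASN2, -1.04 for Desat1 and -0.65 for Cpr. All 4 were called in each set alone. Over all genes, 1386 of 13977 tested were called lower within replicates 1 to 3, and 2011 of 13927 within replicates 4 and 5. Estimates were further from 0 in the later-numbered set for each of the 4, but edgeR's interaction test of group by set called 0 of the 7 tested members (18.8% of all genes were called), while 3 had an unadjusted p under 0.05. Those 3 were Cpr (adjusted p = 0.0744), Elo68alpha (adjusted p = 0.1) and Desat1 (adjusted p = 0.111). No other tool was used for the interaction.

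The sets also divided the members by pattern. In control, replicates 4 and 5 exceeded replicates 1 to 3 by 0.36 for Cyp4g1, 0.45 for Cpr, 0.29 for FASN2 and 0.57 for FarO on the log2 CPM scale. In knockdown the same differences were 0.20 for Cyp4g1, 0.20 for Cpr, 0.10 for FASN2 and 0.36 for FarO. The other 3 tested members had another pattern, with -0.39 in knockdown and 0.086 in control for Desat1, 0.33 in knockdown and -0.17 in control for Elo68alpha, and 0.38 in knockdown and -0.044 in control for eloF. Over the 10 libraries, as deviations from the group means, Cyp4g1 correlated with Cpr at r = 0.98, with FarO at 0.85 and with FASN2 at 0.83, but with eloF at 0.27, with Desat1 at 0.031 and with Elo68alpha at -0.10. These coefficients describe 10 libraries that share the split into sets.

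**Figure D3:**
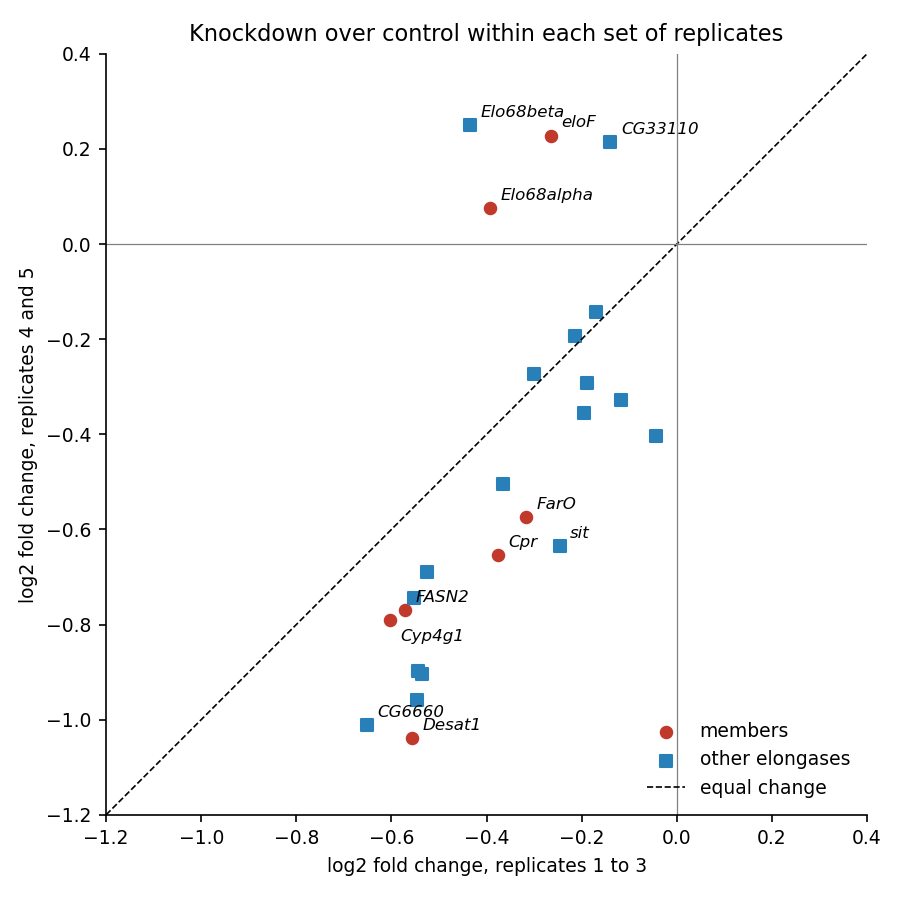
Log2 fold change of knockdown over control within replicates 1 to 3 (horizontal) and within replicates 4 and 5 (vertical) for the 7 tested hydrocarbon synthesis genes (red circles) and 17 other elongases (blue squares), with a dashed line of equal change. Desat1 lies at -0.56 and -1.04, Cyp4g1 at -0.60 and -0.79, and Elo68alpha and eloF are below 0 in the first set and above 0 in the second.

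The wider pathway was examined through lists of related enzymes. Elongases other than eloF and Elo68alpha, which add carbons to fatty acyl chains, were lower in 13 of 17 tested genes and higher in none, with a median log2 change of -0.28. No elongase was higher at an unadjusted p under 0.05 or by DESeq2 or limma voom. The share lower, 76.5%, stands beside 5.51% of all genes. CG6660 averaged 41.4 ± 1.5 CPM in knockdown and 71.9 ± 9.7 CPM in control (log2 -0.80, SE 0.083, adjusted p = 0.000116). CG31523, the most abundant of the list, averaged 649 ± 24 CPM in knockdown and 865 ± 63 CPM in control (log2 -0.41, adjusted p = 0.00149), and CG2781, now Elovl7, changed by -0.28 (adjusted p = 0.00148). At least 1.5-fold lower and called were 6 of the 17 elongases and 3 of the 7 hydrocarbon genes (1.26% of all genes). The change differed between the sets of replicates (interaction called) for 18.8% of all genes and for 6 of the 17 elongases. Among these were CG6660 (-0.65 and -1.01, interaction adjusted p = 0.0205), CG16904 (-0.55 and -0.96, interaction adjusted p = 0.0159) and CG9459 (-0.54 and -0.90, interaction adjusted p = 0.0253), with replicates 1 to 3 given first. The other 3, named after their values were seen, were CG9458 (-0.55 and -0.90, interaction adjusted p = 0.031), sit (-0.25 and -0.64, interaction adjusted p = 0.0108) and CG33110. CG33110 went the other way, lower within replicates 1 to 3 (-0.14, adjusted p = 0.0486) and at 0.21 (adjusted p = 0.0727) within replicates 4 and 5 (interaction adjusted p = 0.0101).

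The 7 elongases with the lowest log2 changes, from -0.80 to -0.41, were also the 7 whose deviations correlated most with those of Cyp4g1. They were CG6660, CG16904, CG9458, CG9459, CG30008, CG18609 and CG31523, singled out after their values were seen, with r of 0.84 or more over the 10 libraries. The other 10 elongases had r between -0.59 and 0.66. The number 7 was chosen as the one of 4 tried at which both rankings hold the same genes. They shared 3 genes of the first 5, 5 of the first 6 and 7 of the first 8. These coefficients too rest on libraries that share the sets, and no test was made of them.

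**Figure D4:**
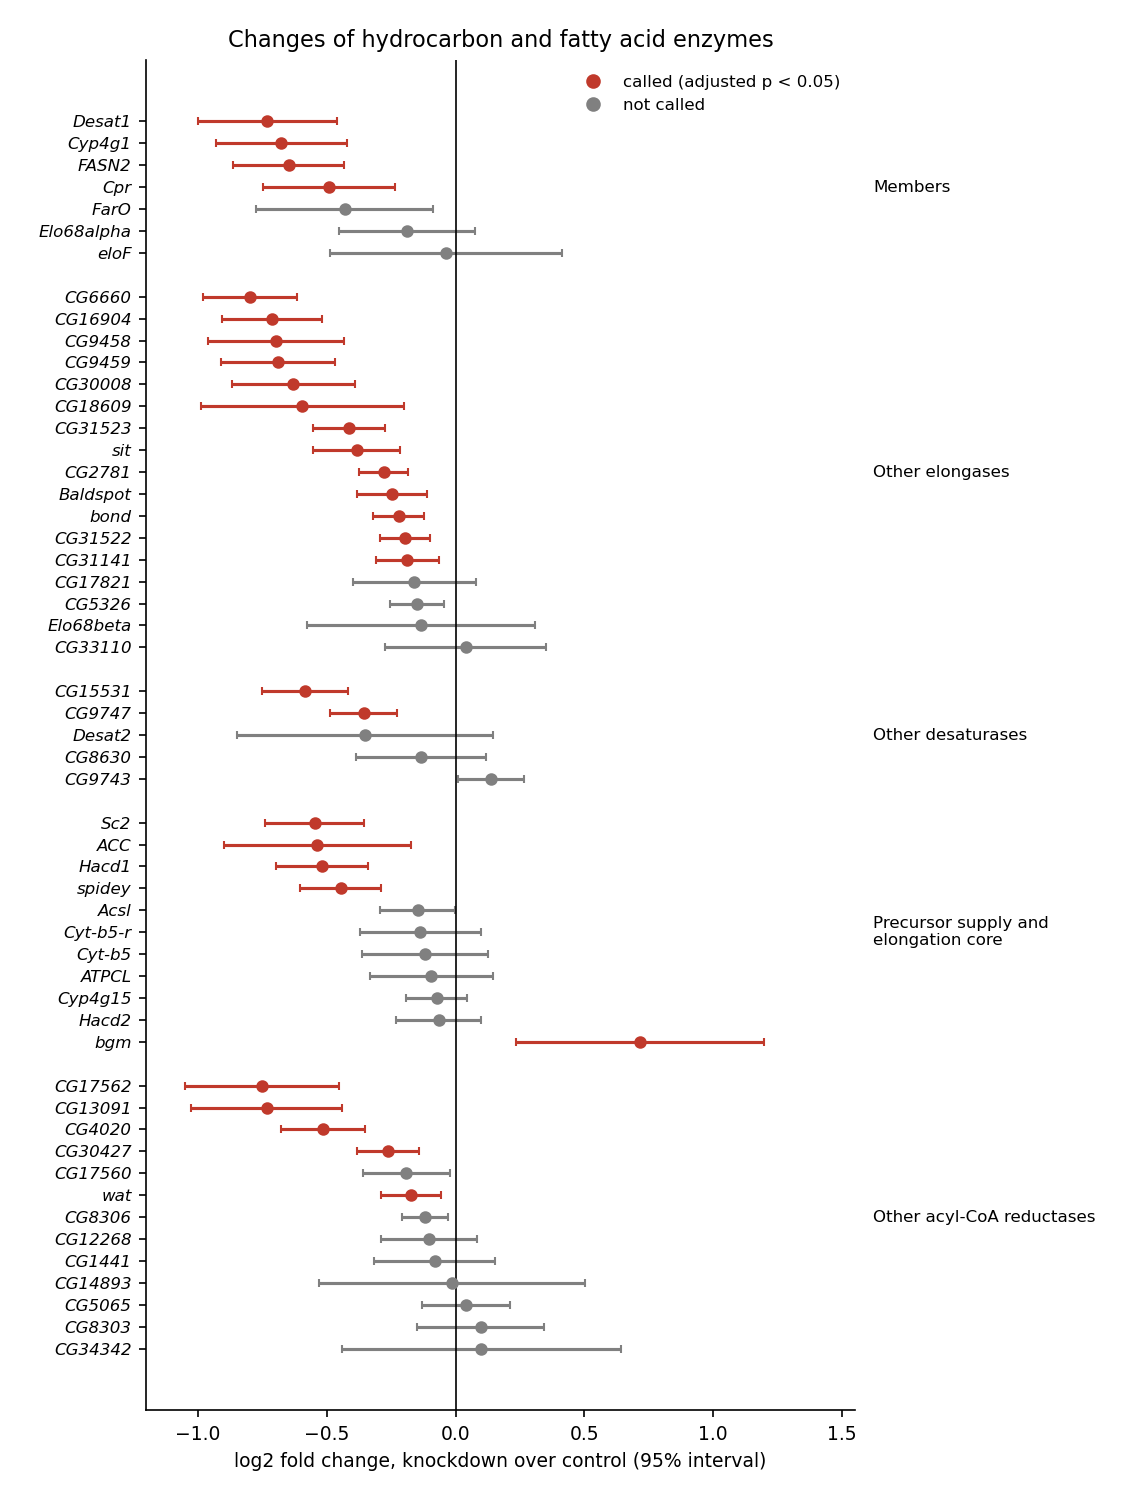
Log2 fold change of knockdown over control with its 95% interval for tested members and for tested genes of 4 enzyme lists, red where the adjusted p was under 0.05 and grey where it was not. Most elongases lie left of 0, down to -0.80 for CG6660, whereas bgm at 0.72 is the one called gene right of 0.

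The other desaturases, related in sequence to Desat1, were lower in 2 of 5 and higher in none (5.51% and 11.1% of all genes). CG15531 averaged 103.5 ± 6.6 CPM in knockdown and 155.2 ± 16.6 CPM in control (log2 -0.58, SE 0.076, adjusted p = 0.000535). CG9747 changed by -0.36 (adjusted p = 0.00239), with -0.25 in replicates 1 to 3 against -0.55 in replicates 4 and 5 (interaction adjusted p = 0.028). One desaturase was higher at an unadjusted p under 0.05, and DESeq2 and limma voom called none higher.

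Each elongation cycle needs 3 further enzymes besides the elongase, and 1 listed gene for each fell. The ketoacyl-CoA reductase spidey averaged 295.0 ± 12.5 CPM in knockdown and 401.8 ± 40.7 CPM in control (log2 -0.45, SE 0.072, adjusted p = 0.00204). The dehydratase Hacd1 averaged 169.7 ± 5.0 CPM in knockdown and 243.3 ± 31.6 CPM in control (log2 -0.52, SE 0.082, adjusted p = 0.00167). A second dehydratase gene, Hacd2, named after its values were seen, was not called, at 17.9 ± 1.7 CPM in knockdown and 18.7 ± 1.3 CPM in control (log2 -0.064, SE 0.075, adjusted p = 0.558). Its change differed between the sets, at 0.075 in replicates 1 to 3 against -0.30 in replicates 4 and 5 (interaction adjusted p = 0.0402). The enoyl-CoA reductase Sc2 averaged 183.6 ± 6.9 CPM in knockdown and 268.1 ± 37.9 CPM in control (log2 -0.55, SE 0.088, adjusted p = 0.00192). Ranges of the groups were separate for spidey, Hacd1 and Sc2, and their changes differed between the sets, with -0.31 and -0.66 for spidey (interaction adjusted p = 0.0196), -0.37 and -0.74 for Hacd1 (interaction adjusted p = 0.0199) and -0.42 and -0.73 for Sc2 (interaction adjusted p = 0.0348), replicates 1 to 3 first.

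In the whole list of precursor supply, elongation core and electron donors, 4 of 11 genes were lower and 1 higher, with a median of -0.14. Beside the counts lower and higher stand 5.51% lower and 11.1% higher over all genes. The fourth lower gene was acetyl-CoA carboxylase, ACC, which makes malonyl-CoA for synthesis and elongation, at 809 ± 194 CPM in knockdown and 1173 ± 161 CPM in control (log2 -0.54, SE 0.17, adjusted p = 0.0467). Its change was -0.20 in replicates 1 to 3 against -1.09 in replicates 4 and 5 (interaction adjusted p = 0.0229). The call of ACC was lost with the replicate number as a block (adjusted p = 0.0553), within replicates 1 to 3 (adjusted p = 0.0747) and on leaving out knockdown replicate 3 or 5 or any control replicate (adjusted p 0.0556 to 0.0988). The very-long-chain acyl-CoA synthetase bgm was the higher one, at 183.4 ± 48.8 CPM in knockdown and 111.6 ± 31.1 CPM in control (log2 0.72, SE 0.22, adjusted p = 0.0462). Its call was lost on leaving out any library except knockdown replicate 4 (adjusted p 0.0589 to 0.0971), with upper-quartile scaling (adjusted p = 0.0612), with limma voom (adjusted p = 0.0501) and with no filter (adjusted p = 0.0529).

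Fatty acyl-CoA reductases other than FarO make fatty alcohols or aldehydes. Among 13 tested, 5 were lower and none higher, with a median of -0.12, against 5.51% lower and 11.1% higher over all genes. CG17562 averaged 69.0 ± 13.4 CPM in knockdown and 116.2 ± 18.0 CPM in control (log2 -0.75, SE 0.14, adjusted p = 0.00398). CG13091, now Sgp and the most abundant, averaged 414.1 ± 31.8 CPM in knockdown and 688.1 ± 153.9 CPM in control (log2 -0.73, SE 0.13, adjusted p = 0.00401), with -0.55 in replicates 1 to 3 against -0.97 in replicates 4 and 5 (interaction adjusted p = 0.028). CG4020 (-0.51) and CG30427 (-0.26) also fell. The fifth, wat, named after its values were seen, changed by -0.17 (adjusted p = 0.0448) and lost its call on leaving out any of knockdown replicates 1 to 3 or control replicates 1 to 4 (adjusted p 0.0639 to 0.0891), with the replicate block (adjusted p = 0.0657) and within replicates 4 and 5 (-0.074, adjusted p = 0.54). No reductase was higher at an unadjusted p under 0.05 or by DESeq2 or limma voom. CG10096 and CG10097, which occupy the same annotated span, had 0 counts in every library. How reads falling on both genes were counted is not given in the sources used here, so this does not show that their transcripts were absent.

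Hydrocarbons leave the oenocyte on lipoproteins, and of 5 carrier and receptor genes 2 were higher and 1 lower (11.1% and 5.51% of all genes). Mtp, the transfer protein that loads lipid onto lipoproteins, averaged 124.9 ± 16.4 CPM in knockdown and 77.4 ± 9.4 CPM in control (log2 0.69, SE 0.10, adjusted p = 0.00119). The lipophorin receptor LpR2 averaged 474.3 ± 50.8 CPM in knockdown and 335.0 ± 17.3 CPM in control (log2 0.50, SE 0.077, adjusted p = 0.00147). The receptor LpR1 changed by -0.23 (adjusted p = 0.0203), a call lost without control replicate 4 or 5 (adjusted p 0.0504 to 0.0523). The main lipoprotein apolpp, highest in the list, averaged 2528 ± 228 CPM in knockdown and 2462 ± 310 CPM in control (log2 0.038, SE 0.099, adjusted p = 0.805), with 0.23 in replicates 1 to 3 against -0.26 in replicates 4 and 5 (interaction adjusted p = 0.0237).

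Of 13 tested regulators tied to oenocytes or to pheromone enzymes, 3 were higher and 1 lower, with a median of 0.037. Over all genes 11.1% were higher and 5.51% lower, so the share of regulators lower (7.69%) is near that of all genes. The clock factor Clk fell by 0.25 on the log2 scale (SE 0.044, adjusted p = 0.00331), and tra, a splicing factor of female sex determination, rose by 0.47 (SE 0.10, adjusted p = 0.0101). The Clk partner cyc (0.34, adjusted p = 0.0316) and the nuclear receptor svp (0.36, adjusted p = 0.0474) were also called. The call of cyc was lost on leaving out knockdown replicate 5 or any control replicate (adjusted p 0.0562 to 0.0803). The call of svp was lost on leaving out any library except replicate 3 of each group (adjusted p 0.0616 to 0.116), with the replicate block (adjusted p = 0.0702), upper-quartile scaling (adjusted p = 0.0675) or no filter (adjusted p = 0.0601), and within replicates 1 to 3 (0.12, interaction adjusted p = 0.0113). The spalt factor salm, named after its values were seen, was at -0.36 over all libraries (adjusted p = 0.156), but was lower within replicates 4 and 5 (-0.94, adjusted p = 0.0127) and at 0.053 (adjusted p = 0.615) within replicates 1 to 3 (interaction adjusted p = 0.00922). With svp, salm and the clock gene per, also named afterwards (interaction adjusted p = 0.0215), 3 of the 13 regulators had a called interaction. The share over all genes was 18.8%, so this count is near it. Leaving out knockdown replicate 5 or control replicate 1, 2, 4 or 5 left 1 regulator higher. Another clock gene, tim, highest in the list, was at 182 ± 81 CPM in knockdown and 196 ± 81 CPM in control (log2 -0.11, adjusted p = 0.85). Its wide spread followed the sets. On the log2 CPM scale, replicates 4 and 5 differed from replicates 1 to 3 by -1.371 in knockdown and -1.225 in control.

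Markers of oenocytes and of other organs were measured beside these genes. For all the marker counts, the shares over all genes were 5.51% lower and 11.1% higher. Of 6 oenocyte markers 5 were themselves members, 4 were tested and 2 fell, Cyp4g1 and spidey. Their summed level was 17830 to 22276 CPM in knockdown and 26621 to 36352 CPM in control, nearly all of it Cyp4g1. The Cyp4g1 transcript was thus high in all libraries, while the female markers desatF and eloF were low, desatF at or under the floor and eloF at 68 counts or fewer.

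Ejaculatory bulb markers fell in 2 of 3, EbpII (-0.37, adjusted p = 0.0211) and Ebp (-0.26, adjusted p = 0.0356), with sums of 4771 to 5832 CPM in knockdown and 6222 to 6961 CPM in control. EbpII was not called without control replicate 1 (adjusted p = 0.052), and Ebp lost its call on leaving out knockdown replicate 3 or 5 or any control replicate but 2 (adjusted p 0.0555 to 0.0754). Of 4 tested accessory gland markers Acp36DE was lower (-0.24, adjusted p = 0.0396), a call lost on leaving out knockdown replicate 1, 2 or 3 or any control replicate (adjusted p 0.0555 to 0.0863), and Acp95EF had 0 counts in every library. The accessory gland sums were 1785 to 2201 CPM in knockdown and 2124 to 2348 CPM in control. The part of these male organs in the values of Elo68alpha was not tested.

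Over all 10 libraries fat body markers held 1 lower gene among 4 tested, the lipid droplet protein Lsd-1 (log2 -0.76, SE 0.14, adjusted p = 0.00408), with sums of 2427 to 3130 CPM in knockdown and 2572 to 3258 CPM in control. The change of Lsd-1 was -0.52 in replicates 1 to 3 against -1.21 in replicates 4 and 5 (interaction adjusted p = 0.0132). All 4 tested fat body markers had a called interaction of group by set, against 18.8% of all genes. The storage protein gene Lsp2 was higher within replicates 1 to 3 (0.51, adjusted p = 0.0122) and lower within replicates 4 and 5 (-1.73, adjusted p = 0.0323; interaction adjusted p = 0.0118). The lipase gene bmm was at 0.018 (adjusted p = 0.819) within replicates 1 to 3 and higher within replicates 4 and 5 (0.50, adjusted p = 0.00874; interaction adjusted p = 0.00561). Lsp2 and bmm are named after their values were seen. The fourth, apolpp, is described with the carriers. Hemocyte markers were higher in 2 of 3 tested, Hml (0.29, adjusted p = 0.0259) and NimC1 (0.48, adjusted p = 0.0356), with sums of 148 to 175 CPM in knockdown and 117 to 141 CPM in control. Leaving out knockdown replicate 5 or control replicate 1, 2 or 3 ended the call of Hml (adjusted p 0.0527 to 0.0841), and NimC1 lost its call on leaving out knockdown replicate 1, 2 or 3 or any control replicate (adjusted p 0.0569 to 0.1) or with upper-quartile scaling (adjusted p = 0.0543). NimC1 changed by 0.70 in replicates 1 to 3 against 0.067 in replicates 4 and 5 (interaction adjusted p = 0.03275). Malpighian tubule markers went both ways, with Uro higher (0.70, adjusted p = 0.00846) and Best2 lower (-0.23, adjusted p = 0.00649), and sums of 288 to 348 CPM in knockdown and 260 to 282 CPM in control.

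Over all 10 libraries none of 6 testis and none of 6 muscle markers was called by edgeR, DESeq2 or limma voom, with 1 testis marker lower and 0 muscle markers different at an unadjusted p under 0.05 in edgeR. Within the sets some were called, and these are named after their values were seen. The testis genes ProtA (-0.39, adjusted p = 0.0498) and ProtB (-0.45, adjusted p = 0.034) were lower within replicates 4 and 5, against -0.066 (adjusted p = 0.33) for ProtA and -0.095 (adjusted p = 0.205) for ProtB within replicates 1 to 3. The muscle gene Act88F was higher within replicates 1 to 3 (0.85, adjusted p = 0.0347), against 0.068 (adjusted p = 0.93) within replicates 4 and 5. TpnC4, also a muscle gene, was lower within replicates 4 and 5 (-0.71, adjusted p = 0.0303), against 0.19 (adjusted p = 0.347) within replicates 1 to 3, and its interaction was called (adjusted p = 0.0444). Testis sums were 1040 to 1333 CPM in knockdown and 1287 to 1422 CPM in control, and muscle sums were 3727 to 7281 CPM in knockdown and 4502 to 6820 CPM in control. The part of organ makeup in the changes of the hydrocarbon genes was not tested.

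With 10578 genes compared, each averaging 2 or more log2 CPM, those most like Cyp4g1 across the 10 libraries, as deviations from the group means, were CG7910 (r = 0.99), CG2765 (0.99), the P450 gene Cyp4e2 (0.98), LManI (0.98) and the row FBgn0042174 (0.98), which the annotation does not name. These 5 did not share a direction, since CG2765 (log2 -0.64, adjusted p = 0.00451) and CG7910 (-0.52, adjusted p = 0.0067) were lower in knockdown, LManI was higher (0.44, adjusted p = 0.0255), and Cyp4e2 was at -0.011 (adjusted p = 0.966). Those most like Desat1 were the row FBgn0027571 (r = 0.98), Cyt-b5-r (0.98), CG9886 (0.98), Ance-4 (0.98) and Tps1 (0.98). The annotation gives no symbol for FBgn0027571, and which gene it stands for was not examined. That row was lower in knockdown (log2 -0.79, adjusted p = 0.0142). Not called were Cyt-b5-r (-0.14, adjusted p = 0.378), CG9886 (0.19, adjusted p = 0.188), Ance-4 (0.27, adjusted p = 0.114) and Tps1 (0.053, adjusted p = 0.851). No gene stood in both lists of 5, and ACC, the enzyme that feeds fatty acid synthesis, had r = 0.95 with Desat1 and 0.21 with Cyp4g1. The 10 libraries share the split into sets, and these likenesses carry no test.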

How the data were processed

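The authors deposited raw counts per gene, whole numbers for 17559 identifiers in 10 libraries. STAR 2.4.0j, featureCounts, bcl2fastq, limma and the genome BDGP6 are named in the submitters' processing notes. Not given in the sources used here are the annotation release, the strand setting and the treatment of reads with several matches. Per the labels' protocols, libraries came from a stranded mRNA kit. Symbols and coordinates came from the Ensembl annotation of BDGP6, which named 17253 rows. Under their current identifiers 107 of 111 listed genes had a row, and older identifiers were not searched.

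Counts were tested with edgeR 4.0.16 in R 4.3.3, with TMM scaling, filterByExpr at a minimum count of 10 and a fit on group alone. SEs are the size of the log2 change over the square root of F. Steps were tested on simulated data. Alternatives used DESeq2 1.42.0, limma 3.58.1 voom, upper-quartile scaling, no filter, a replicate block, a set covariate, each set alone and omission of each library. Levels per kb used merged exon length. Intervals and the floor of 3 counts per library cover counting error or the spread between these libraries only. The series' design text calls the samples biological replicates.

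Same-numbered samples of the 2 groups deviated together at r = 0.16 to 0.28, but samples with another number in the same set did so at 0.090 to 0.34, a range that holds the first, so these values follow the sets and do not show a pairing by number. The labels number the replicates and give no meaning to the numbers. The fit with the number as a block is therefore only an alternative. Replicates of a group differed by more than sampling noise (chi-square per degree of freedom of 6.86 or more).

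The hydrocarbon genes, the lists, the tests and the naming rule were chosen with earlier results of these data known. That rule named all members, up to 4 called genes by adjusted p and the most abundant gene of each enzyme, carrier and regulator list, up to 2 called genes of each marker list, Mef2, and the 5 genes most like Cyp4g1 and Desat1. The comparison of ratios between members and the search for neighbours were added after seeing the data.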

Additional observations from a re-analysis of the deposited data

Results flagged for a closer look

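In 3 named genes 1 library stood far from the other 4 of its group, by a gap test at Dixon's 95% critical value. Chance passes that value in about 1 of 20 groups. Both groups of most named genes were examined, so several such libraries would be expected by chance alone. The acyl-CoA reductase wat was lowest in control replicate 5, at 121.9 CPM. The lipophorin receptor LpR1 was highest in knockdown replicate 5, at 229.1 CPM, and so was the hemocyte gene Hml, at 139.3 CPM. No hydrocarbon synthesis gene had such a library in either group.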

How the results depend on the processing

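Under all 18 alternatives FASN2, Desat1, Cyp4g1 and Cpr stayed lower and called, with log2 changes from -0.77 to -0.57, -1.04 to -0.56, -0.79 to -0.60 and -0.65 to -0.38 in that order. Members called lower were 4 to 6. FarO, not called in the pooled fit, was called with DESeq2 (-0.44), the replicate block (-0.42), the set covariate (-0.41), replicates 1 to 3 (-0.32) and replicates 4 and 5 (-0.57). Without 1 library FarO ranged from -0.51 to -0.32, Elo68alpha from -0.32 to -0.11 and eloF from -0.24 to 0.079. Elo68alpha was -0.39 and called in replicates 1 to 3 and 0.076 in replicates 4 and 5, where eloF was 0.23. Among other named genes put through all alternatives, estimates that turned sign were never called in the pooled fit. They were apolpp with upper-quartile scaling (-5.4e-05) and in replicates 4 and 5 (-0.26), Elo68beta there (0.25) and Desat2 in replicates 1 to 3 (0.031). Leaving out 1 library they were apolpp (-0.014 to 0.090), tim (up to 0.063) and Elo68beta (up to 0.011). Some named genes were fitted only over all libraries and within the sets. Of these, CG33110 (-0.14), Hacd2 (0.075), salm (0.053) and Cyt-b5-r (0.053) turned sign within replicates 1 to 3. Lsp2 (-1.73) and TpnC4 (-0.71) did so within replicates 4 and 5. None of them was called in the pooled fit.

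Genes called higher numbered 2687 with the set covariate, and genes called lower 2084 with it, 1304 with DESeq2, 1386 in replicates 1 to 3 and 2011 in replicates 4 and 5. Without 1 library 853 to 1612 were higher and 414 to 941 lower. The other elongases called lower were 11 to 14 under all alternatives. Desaturases called higher were 1 with the set covariate and in replicates 1 to 3. The elongation core had 0 higher with upper-quartile scaling, limma voom and no filter, and 0 to 1 without 1 library. Reductases numbered 8 lower in replicates 1 to 3, and 3 lower and 1 higher in replicates 4 and 5. Carriers had 0 lower and regulators 2 lower in replicates 4 and 5, and without 1 library carriers had 0 to 1 lower and regulators 1 to 3 higher.

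Among the named genes put through it, the replicate block changed no other call than those of FarO, ACC, svp and wat. By longest transcript, Desat1 was at 1040 CPM per kb in knockdown and 1725 in control, and Cpr at 494 in knockdown and 695 in control, with the order of levels kept. Within replicates 4 and 5 alone Mef2, CG30427, LpR1, wat, Acp36DE, Hml, NimC1 and Best2 were not called, and within replicates 1 to 3 ACC, svp and Ebp were not. Causes of these shifts were not tested. Among the hydrocarbon genes, eloF and desatF had the fewest counts.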
